A study of Mus musculus with 8 samples.

Results

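T cells answer an antigen only when the antigen-presenting cell also gives a second signal, and the genes of that exchange are described here in the blood of mice after acute restraint. They are 10 genes of the count table that were chosen by their symbols, out of 21878 in all: the ligands and receptor of antigen-presenting cells Cd80, Cd86, Cd40, Cd274 and Icosl, the T cell receptors Cd28, Ctla4, Icos and Pdcd1, and the cytokine gene Tgfb1. Blood was taken from 8 wild-type (WT) female C57BL/6 mice between 6 and 8 weeks of age, and total RNA from the whole peripheral blood was sequenced as 1 library per sample. The 4 mice of the stress group were held in a ventilated tube for 6 h without food and water, and the 4 control littermates stayed in their cage, also without food and water, so fasting was common to both groups. The comparison asks which transcripts of circulating blood cells differ at the end of the restraint.

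CD80 and CD86, the B7 ligands, bind CD28 to costimulate a T cell and bind CTLA-4, with higher affinity, to restrain it. PD-L1, the product of Cd274, engages the inhibitory receptor PD-1 (Pdcd1), and it can also bind CD80 on the same cell. ICOS ligand (Icosl), which B cells carry, engages ICOS on activated and helper T cells, CD40 on B cells and myeloid cells receives the signal of CD40 ligand from helper T cells, and TGF-β1 is a cytokine that restrains T cells and that platelets store in large amounts.

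Control libraries held 31471145 to 39014775 counts and stress libraries 25978683 to 29655725, of which haemoglobin genes took 51.9% to 63.8% and 61.2% to 75.5%. With haemoglobin set aside, stress replicate 3 was the shallowest library, at 6352711 counts. Counts were scaled with TMM (trimmed mean of M values), which takes most genes as unchanged. Over all tested genes the log2 fold change had a median of -0.03 on this scale and -0.82 with total counts alone as the library size. Levels are given in CPM (counts-per-million of the TMM-scaled library, or of all counts where total-count CPM is written) and log2 fold changes compare stress with control on the TMM scale where no other is given. Testing was limited to the 11718 genes that reached 10 counts in 4 or more samples, and all 10 members passed this filter. A gene rose or fell where edgeR (quasi-likelihood test, Benjamini-Hochberg adjustment over all tested genes) gave an adjusted p below 0.05. It was called where its absolute log2 fold change exceeded 1 and its adjusted p was under 0.01. The study set these thresholds for DESeq2, and here they are applied to edgeR unless DESeq2 is named.

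Of the 10 genes, 2 rose (Cd80 and Tgfb1), 1 fell (Icosl) and 7 did not pass the test, against 10.4% of all tested genes that rose and 3.69% that fell. Of the 10, 0 were called in either direction in this edgeR fit (DESeq2 called 1, Cd80, and the 3 genes named were also those with an unadjusted p under 0.05), while 1.69% of all tested genes were called up and 0.0171% called down (198 and 2 genes). All stress samples were above all control samples for 2 of the 10, Cd80 and Tgfb1, and below them for 1, Icosl, against 11.1% and 9.88% of all tested genes. With 10 genes, counts of 2 and 1 lie near these shares and are no result about the 10 as a group. On total counts alone the split was different, with 0 of the 10 higher and 6 lower (Cd86, Cd40, Icosl, Cd28, Ctla4 and Icos) at an adjusted p below 0.05 beside 0.444% and 49.6% of all tested genes, and 14 genes were called up and 729 down over the whole table. An error in a library's scale is shared by all its genes, which the model does not count, so for that scale exact permutation tests over the samples are given for each of the 10 genes. Counts of genes higher or lower on that scale, here and below, rest on the model alone. How many of all tested genes separate the groups on that scale was not counted. Of the 6 genes, Cd40 (p = 0.0857) and Icos (p = 0.0571) did not pass this exact permutation test, and neither did Pdcd1 (p = 0.114).

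The promoters of the 3 genes that passed the test are shown because they are the regulatory sequences of the members with a measured change. They run from 250 bases before to 50 after the transcription start of the RefSeq annotation of GRCm38.p6 and are written 5′ to 3′ on the gene's strand (the plus strand for all 3). The RefSeq start of Cd80 lies inside the gene as GENCODE places it, downstream of the gene start given below, so its window describes the RefSeq start only. Capitals mark matches, on either strand, to the motifs searched.
Cd80 at chr16:38458683-38458982: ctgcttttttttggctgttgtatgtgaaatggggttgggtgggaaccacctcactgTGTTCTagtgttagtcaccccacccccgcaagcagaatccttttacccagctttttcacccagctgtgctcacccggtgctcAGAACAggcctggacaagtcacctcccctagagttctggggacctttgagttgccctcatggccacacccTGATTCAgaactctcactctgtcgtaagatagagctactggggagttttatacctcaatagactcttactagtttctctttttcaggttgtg
Icosl at chr10:78069118-78069417: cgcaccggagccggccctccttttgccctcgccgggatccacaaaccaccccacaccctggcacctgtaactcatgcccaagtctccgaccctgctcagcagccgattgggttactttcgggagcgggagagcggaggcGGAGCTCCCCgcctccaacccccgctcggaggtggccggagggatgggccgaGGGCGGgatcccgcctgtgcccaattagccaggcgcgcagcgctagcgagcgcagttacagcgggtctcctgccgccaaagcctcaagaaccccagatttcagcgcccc
Tgfb1 at chr7:25686752-25687051: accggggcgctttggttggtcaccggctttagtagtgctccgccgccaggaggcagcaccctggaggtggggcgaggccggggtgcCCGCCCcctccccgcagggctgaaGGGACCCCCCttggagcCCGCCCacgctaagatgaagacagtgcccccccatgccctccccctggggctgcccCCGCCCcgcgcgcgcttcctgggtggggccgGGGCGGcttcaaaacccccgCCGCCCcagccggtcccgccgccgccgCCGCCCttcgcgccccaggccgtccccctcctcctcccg
The 3 differ in base composition, with a GC content of 49.7% for Cd80, 68.0% for Icosl and 77.0% for Tgfb1. The Cd80 sequence holds 2 matches to AGAACA, the core hexamer of the glucocorticoid receptor, which 19.0% of 32851 promoters of this length hold, and 1 match to the AP-1 motif TGANTCA, held by 7.81%. The Tgfb1 sequence holds 6 matches to GGGCGG, the core of the SP1 motif (35.7% of promoters), and 1 to the NF-kappaB consensus (8.46%), and the Icosl sequence holds 1 of each. The cAMP response element TGACGTCA (1.79% of promoters) and the PU.1 motif GAGGAAGT (3.20%) were not found in these windows, and AGAACA and TGANTCA were not found in those of Icosl and Tgfb1. Promoters were matched for 6 of the 10 genes, and of the other 3 the Pdcd1 window holds 2 matches to AGAACA and 1 to GGGCGG, the Cd274 window 1 to GGGCGG and the Ctla4 window none of the motifs. A match is a run of letters and not a measured binding site.

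Cd80 (GRCm38 chromosome 16, 38455561 to 38496335, plus strand) encodes the B7 ligand that appears on activated antigen-presenting cells. The control samples had 0.897, 1.12, 0.824 and 1.48 CPM and the stress samples 2.28, 2.37, 1.82 and 2.08 CPM, so that the lowest stress sample was above the highest control sample. The mean rose 2.0-fold, from 1.08 ± 0.296 to 2.14 ± 0.241 CPM (SD, n = 4 per group). The log2 fold change was 1.00 (standard error 0.26, 95% interval 0.45 to 1.56, adjusted p = 0.0219, edgeR). The counts behind it are few, with 33, 58, 57 and 47 in the control samples and 51, 51, 24 and 65 in the stress samples, and they overlap. The rise is therefore a rise relative to the typical gene of the library. In total-count CPM Cd80 went from 1.41 ± 0.257 to 1.69 ± 0.567 (SD, n = 4 per group) with overlapping groups (log2 difference 0.20, two-sided exact permutation test, p = 0.486). Without control replicate 1, 2 or 3 Cd80 did not pass (adjusted p = 0.0582, 0.0631 and 0.0795), and DESeq2 called it (log2 fold change 1.02, adjusted p = 0.00302).

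Cd86 (chromosome 16, 36603869 to 36666081, minus strand), the B7 ligand that monocytes and dendritic cells carry already at rest, did not pass on the TMM scale. Its control samples had 3.91, 4.28, 5.22 and 4.57 CPM and its stress samples 3.03, 5.52, 3.57 and 2.31 CPM. The stress samples held both the highest value (replicate 2) and the lowest (replicate 4), so the groups overlapped. The log2 fold change was -0.33 (standard error 0.23, 95% interval -0.84 to 0.17, adjusted p = 0.353, edgeR). In total-count CPM every stress sample was below every control sample, at 2.70 ± 0.934 against 6.18 ± 2.20 (SD, n = 4 per group; log2 difference -1.19, exact permutation test, two-sided, p = 0.0286, which is the smallest that 4 samples against 4 allow). The median of all tested genes on that scale was -0.82.

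Cd274 (chromosome 19, 29367455 to 29388095, plus strand) had the narrowest interval of the 10 genes around its log2 fold change. The control samples had 13.4, 12.9, 12.9 and 13.5 CPM and the stress samples 14.5, 13.6, 12.1 and 13.8 CPM, and the groups overlapped. Its log2 fold change was 0.04 (standard error 0.10, adjusted p = 0.804, edgeR), with a 95% interval from -0.17 to 0.26 relative to the typical gene. On total counts alone its direction was the opposite (log2 difference -0.77, exact permutation test, p = 0.0571), near the median shift of all genes on that scale. Of its exon bases, 511 (14.1%) overlap an antisense gene, AC119228.1, on the opposite strand, and whether the counting used the strand is not given in the sources used here.

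Cd40 (chromosome 2, 165055627 to 165072948, plus strand) had 8.10, 9.60, 10.3 and 6.53 CPM in the control samples and 8.52, 4.59, 6.98 and 7.36 CPM in the stress samples. The groups overlapped on both scales, and the log2 fold change was -0.34 (standard error 0.19, 95% interval -0.75 to 0.07, adjusted p = 0.246, edgeR). The gene of its ligand, Cd40lg, which activated helper T cells carry, was at 3.68 ± 0.517 CPM in the control group and 2.72 ± 0.356 CPM in the stress group (SD, n = 4) and did not pass either, at -0.41 on the log2 scale (standard error 0.18, adjusted p = 0.135, edgeR).

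Icosl (chromosome 10, 78069302 to 78083913, plus strand) fell. The control samples had 40.9, 44.9, 46.6 and 42.3 CPM and the stress samples 28.9, 27.3, 30.1 and 35.7 CPM, without overlap. The mean went from 43.7 ± 2.57 to 30.5 ± 3.66 CPM (SD, n = 4 per group), which is 0.699 of the control level (95% interval 0.594 to 0.821; log2 fold change -0.52, standard error 0.11, adjusted p = 0.00764, edgeR). Of the 10 genes it had the smallest p, and it passed in all 8 fits that left out 1 sample (adjusted p = 0.00469 to 0.0344). Icosl was also below the control range in every stress sample in total-count CPM (log2 difference -1.33, exact permutation test, p = 0.0286). The median of all tested genes on that scale was -0.82. Of the 15 B cell markers 9 fell and 0 rose (edgeR and DESeq2), at a median log2 fold change of -0.48, and their summed level was 1298 to 1592 CPM in the control samples and 891 to 1160 CPM in the stress samples. On total counts alone 15 of the 15 B cell markers were lower (median -1.27), beside 49.6% of all tested genes. In whole blood, fewer cells of a type and less RNA per cell cannot be told apart.

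**Figure D1:**
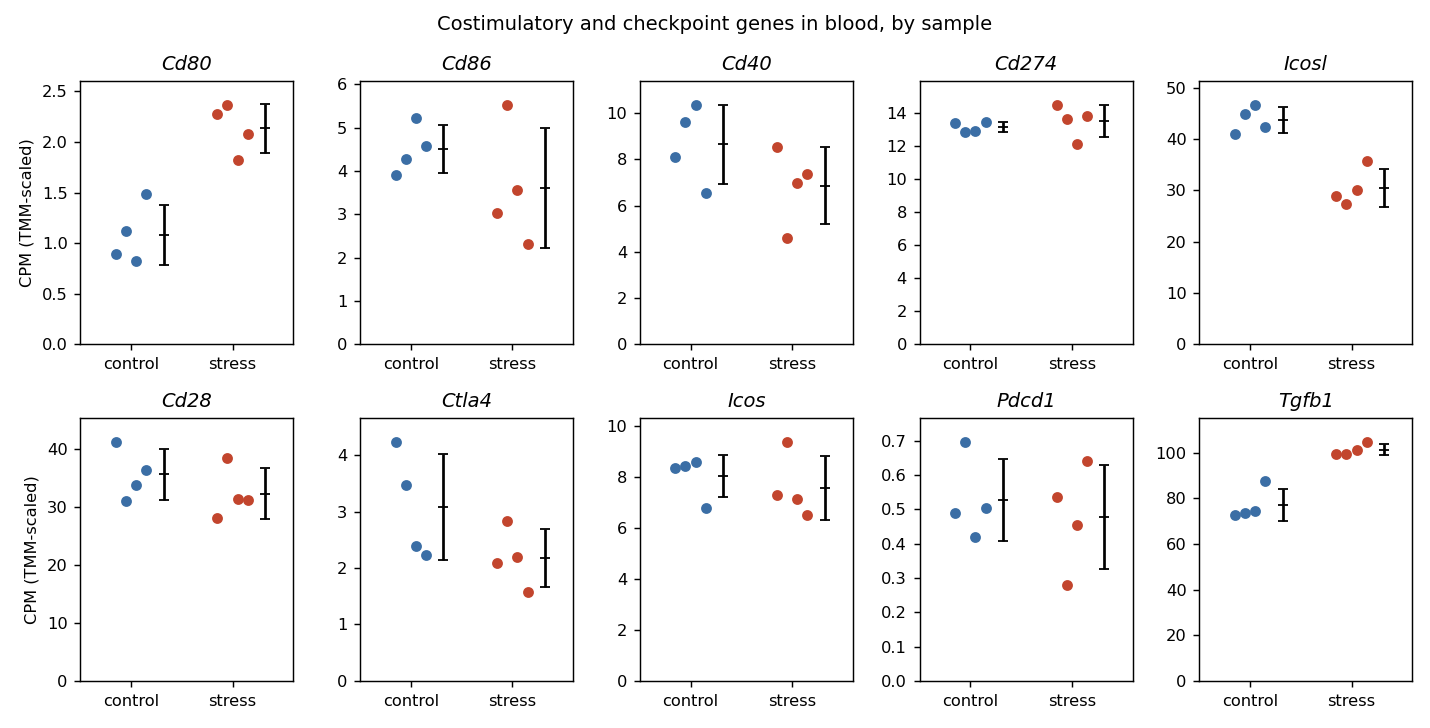
Level of each of the 10 genes in each sample, in CPM of the TMM-scaled library on a linear axis from 0; points are samples in the order of their replicate numbers and bars are the mean ± SD of the 4 samples of a group. The groups of Cd80 (1.08 against 2.14 CPM), Icosl (43.7 against 30.5 CPM) and Tgfb1 (77.1 against 101.2 CPM) do not overlap, and those of the other 7 genes do.

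The 4 receptors of T cells did not pass the test (edgeR, 0 of 4 also at an unadjusted p under 0.05 and by DESeq2). Cd28 (chromosome 1, 60716800 to 60773359, plus strand), the costimulatory receptor of resting T cells, had 41.3, 31.1, 33.9 and 36.4 CPM in the control samples and 28.1, 38.6, 31.5 and 31.2 CPM in the stress samples. Its groups overlapped, and its log2 fold change was -0.14 (standard error 0.12, 95% interval -0.41 to 0.12, adjusted p = 0.467, edgeR). Icos (chromosome 1, 60977927 to 61000320, plus strand) had 8.34, 8.42, 8.57 and 6.78 CPM in the control samples and 7.27, 9.37, 7.13 and 6.50 CPM in the stress samples, which also overlapped. The log2 fold change of Icos was -0.09 (standard error 0.14, 95% interval -0.40 to 0.22, adjusted p = 0.713, edgeR).

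Ctla4 (chromosome 1, 60887000 to 60915832, plus strand), the inhibitory receptor that regulatory T cells carry, had 4.24, 3.46, 2.38 and 2.24 CPM in the control samples and 2.10, 2.83, 2.20 and 1.57 CPM in the stress samples. The 2 lowest control samples lay within the range of the stress samples, and the log2 fold change was -0.51 (standard error 0.26, 95% interval -1.07 to 0.04, adjusted p = 0.191, edgeR). Foxp3, the defining factor of regulatory T cells, had 4.64 ± 0.456 CPM in the control and 3.72 ± 0.431 CPM in the stress samples (SD, n = 4), which is -0.33 on the log2 scale (standard error 0.16, adjusted p = 0.175, edgeR). Of the 4 markers of regulatory T cells 0 passed (edgeR, also 0 at an unadjusted p under 0.05 and by DESeq2; median log2 fold change -0.34; on total counts alone 4 of 4 were lower), and their summed level was 15.5 to 18.6 CPM in the control samples and 12.2 to 15.03 CPM in the stress samples. In total-count CPM the stress samples of Ctla4 and Cd28 lay below every control sample (log2 differences -1.28 and -0.95, exact permutation test, p = 0.0286 each). The median of all tested genes on that scale was -0.82, and Cd28 lay near it.

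Pdcd1 (chromosome 1, 94038305 to 94052553, minus strand), which encodes PD-1, was the scarcest of the 10 by counts. It had 18, 36, 29 and 16 counts in the control samples and 12, 6, 6 and 20 in the stress samples, or 0.489, 0.697, 0.419 and 0.505 CPM against 0.535, 0.278, 0.455 and 0.640 CPM. The log2 fold change was -0.12 (standard error 0.40, adjusted p = 0.876, edgeR), with a 95% interval from -0.99 to 0.75, and a change within that range was not detectable at this depth. Pdcd1lg2, the gene of the second PD-1 ligand, had 2.24 ± 0.443 and 1.40 ± 0.772 CPM (SD, n = 4 each; log2 fold change -0.62, standard error 0.33, adjusted p = 0.224, edgeR).

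Tgfb1 (chromosome 7, 25687002 to 25705077, plus strand) rose. The control samples had 72.9, 73.7, 74.2 and 87.5 CPM and the stress samples 99.5, 99.5, 101.2 and 104.8 CPM, without overlap. The mean went from 77.1 ± 6.99 to 101.2 ± 2.48 CPM (SD, n = 4 per group), or 1.31-fold (95% interval 1.12 to 1.54; log2 fold change 0.39, standard error 0.11, adjusted p = 0.0290, edgeR). On total counts alone the direction was the opposite, from 103.4 ± 21.5 to 79.6 ± 26.6 total-count CPM (SD, n = 4 per group) with overlapping groups (log2 difference -0.41, exact permutation test, p = 0.171). The median gene of that scale was at -0.82. Without control replicate 1, 2 or 3 the rise did not pass (adjusted p = 0.0802, 0.105 and 0.0922). Platelet markers moved with it: 12 of 12 rose on the TMM scale (median log2 fold change 0.98; on total counts alone 0 of 12 were higher at an adjusted p below 0.05, median 0.22), and their summed level was 1691 to 2503 CPM in the control samples and 3847 to 4424 CPM in the stress samples. Neutrophil markers rose in 12 of 14 tested (median 1.48, summed level 203.2 to 398.6 and 632.1 to 933.8 CPM), and Camp of that list had at most 8 counts in any sample and was not tested. On total counts alone 6 of the 14 neutrophil markers were higher and 0 lower (median 0.73). The level of Tgfb1 relative to the platelet markers is given below, and the part of neutrophils in its rise was not tested.

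**Figure D2:**
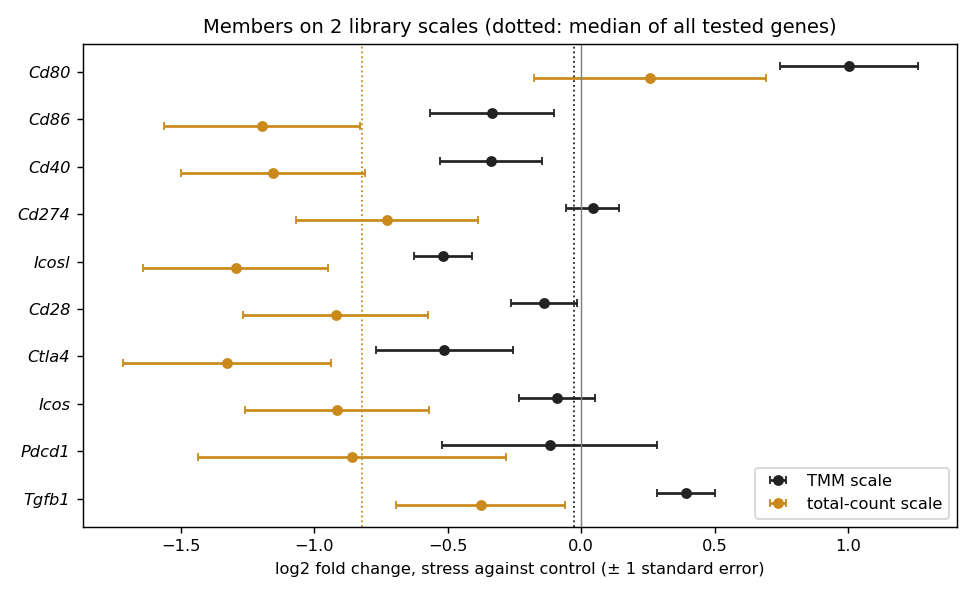
Log2 fold change of each gene (stress against control, ± 1 standard error) with libraries scaled by TMM (black) and by total counts alone (ochre), with the median of all tested genes on each scale as a dotted line (-0.03 and -0.82). Cd80, Tgfb1 and Cd274 lie above 0 on the TMM scale, of which only Cd80 does so on total counts. Icosl lies below the median of all genes on both scales. A change of scale moves all genes by about the same amount, so keeping this place is no separate result.

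Divided by exon length, which allows levels of different genes to be compared, Tgfb1 was the most abundant of the 10 in both groups, at 15.3 ± 1.39 CPM per kb in control and 20.1 ± 0.493 in stress samples (SD, n = 4 each). Icosl followed with 9.45 ± 0.556 and 6.60 ± 0.793 CPM per kb, then Cd28 with 5.83 ± 0.711 and 5.28 ± 0.719, and Cd274 with 3.63 ± 0.0898 and 3.73 ± 0.274. In the control group the sample ranges of these 4 did not touch their neighbours' ranges, and in the stress group those of Icosl and Cd28 overlapped. Cd40 (2.54 and 2.02 CPM per kb) and Icos (2.34 and 2.21) had overlapping ranges in both groups, as did Ctla4 (1.32 and 0.933) and Cd86 (1.23 and 0.985). In the stress group the ranges of Cd40 and Cd86 overlapped as well. Cd80 and Pdcd1 were the lowest, with 0.292 ± 0.0799 and 0.273 ± 0.0616 CPM per kb and overlapping ranges in the control group. In the stress group Cd80, at 0.577 ± 0.0651 CPM per kb, lay above Pdcd1, at 0.247 ± 0.0792, in every sample.

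Ratios of 2 genes within a sample (log2 CPM with a prior count of 2) depend little on how the libraries are scaled, and 6 such pairs were compared between the groups with two-sided exact permutation tests, whose smallest possible p is 0.0286 and whose p-values were adjusted over the 6 pairs. The log2 ratio of Cd80 to Cd86, ligands that share both receptors, was -2.06, -1.88, -2.58 and -1.59 in the control samples and -0.41, -1.20, -0.95 and -0.14 in the stress samples. It was higher in every stress sample than in every control sample, by 1.35 on average, which is 2.55-fold (-2.03 ± 0.42 against -0.68 ± 0.49, SD, n = 4 per group; exact permutation test, p = 0.0286, adjusted 0.0857). Since the smallest attainable p leaves 0.0857 after adjustment when 2 pairs reach it, neither pair passed a threshold of 0.05 over the 6.

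The log2 ratio of Cd274 to Cd80, which compares PD-L1 with the ligand it can bind on the same cell, was 3.82, 3.45, 3.88 and 3.13 in the control samples and 2.64, 2.50, 2.70 and 2.70 in the stress samples. It was lower in every stress sample, by a mean log2 difference of -0.94 (3.57 ± 0.35 against 2.63 ± 0.09, SD, n = 4 per group; exact permutation test, p = 0.0286, adjusted 0.0857). Both of these pairs contain Cd80, so they are not independent. The ratio of Ctla4 to Cd28, the inhibitory and the activating receptor of the same ligands, was -3.55 ± 0.41 in control and -3.88 ± 0.26 in stress samples (SD, n = 4 each; difference -0.33, exact permutation test, p = 0.257, adjusted 0.514), with overlapping samples. The differences of Icosl to Cd86 (-0.15), Icos to Cd28 (0.05) and Pdcd1 to Cd28 (-0.02) were small beside the spread of the samples (exact permutation test, p = 0.657, 0.714 and 0.971).

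**Figure D3:**
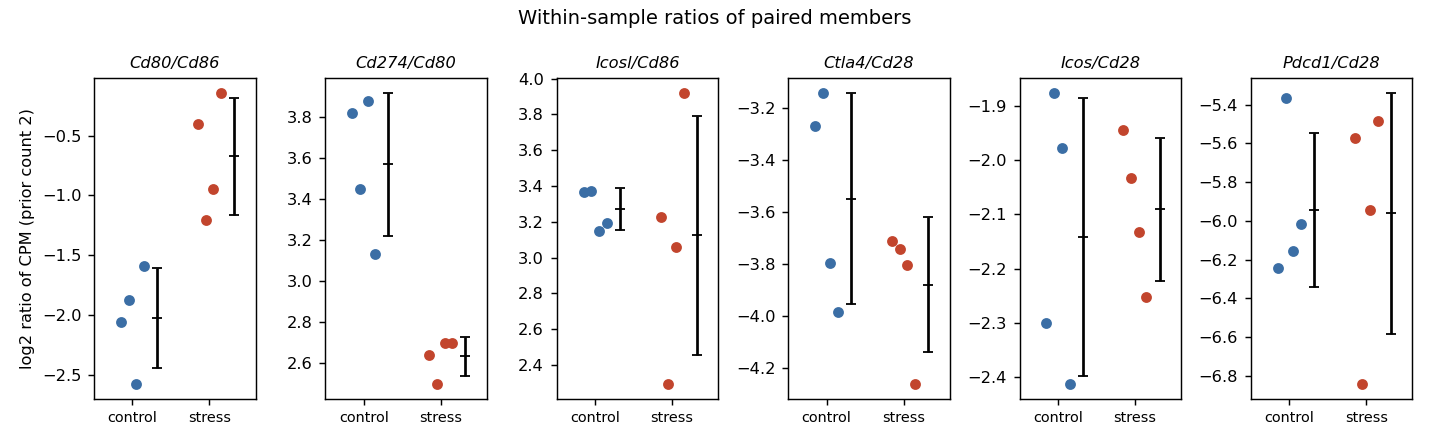
Log2 ratio of the CPM of 2 genes (prior count 2) within each sample for the 6 pairs compared; points are samples, bars are the mean ± SD of the 4 samples of a group, and each panel has its own axis, which does not start at 0. The groups separate for Cd80/Cd86 (-2.03 against -0.68) and Cd274/Cd80 (3.57 against 2.63) and overlap for the other 4 pairs.

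Each gene was also expressed relative to marker genes of cells known to carry it, by scaling the libraries on those markers in place of TMM. The 14 T cell markers did not pass on the TMM scale (edgeR, 0 of 14 also at an unadjusted p under 0.05 and by DESeq2; median log2 fold change -0.11), while on total counts alone 11 of 14 were lower (median -0.91). On the scale of these markers, whose summed level was 599.5 to 641.5 CPM in the control and 531.7 to 668.0 CPM in the stress samples, 0 of the 4 T cell receptors passed (edgeR, also 0 at an unadjusted p under 0.05). The log2 fold change on this scale was -0.08 for Cd28 (95% interval -0.38 to 0.23), -0.02 for Icos (-0.35 to 0.30), -0.46 for Ctla4 (-1.0 to 0.09) and -0.01 for Pdcd1 (-0.98 to 0.96). Tgfb1, which T cells also make, was at 0.48 (standard error 0.16, adjusted p = 0.0651, edgeR; exact permutation test, p = 0.0571) relative to these markers. Of all tested genes, 9.29% were higher and 0.247% lower at an adjusted p below 0.05 on this scale, whose median was 0.06.

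On the scale of the 15 B cell markers, Icosl was at -0.05 (standard error 0.15, 95% interval -0.36 to 0.26, adjusted p = 0.802, edgeR) and its groups overlapped (exact permutation test, p = 0.457). Icosl thus lay near the level of the B cell markers, while the median gene of this scale was at 0.45. A new scale moves all genes by about the same amount, so a gene's place beside the median gene is no separate result. Cd40 was at 0.14 (95% interval -0.24 to 0.51) and Cd86 at 0.18 (-0.38 to 0.75) on this scale. Cd80 was higher, at 1.48 (standard error 0.31, adjusted p = 0.00103, edgeR), without overlap between the groups (exact permutation test, p = 0.0286), while 40.5% of all tested genes were higher and 0.0768% lower on this scale.

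Classical monocyte markers rose in 8 of 11, at a median log2 fold change of 1.70, and their summed level was 141.3 to 183.6 CPM in the control samples and 251.9 to 513.1 CPM in the stress samples. Dendritic cell markers rose in 3 of 7 tested, with a median of 1.23 and a summed level of 5.03 to 6.48 and 8.95 to 12.2 CPM, and Batf3 of that list had at most 7 counts in any sample and was not tested. Non-classical monocyte markers fell in 4 of 8, with a median of -0.44. On total counts alone 6 of 11 classical monocyte markers were higher (median 0.96) and 6 of 8 non-classical ones lower (median -1.165). Of the dendritic cell markers 0 were higher and 1 was lower on total counts (median 0.40). Relative to the classical monocyte markers, Cd80 was at -0.44 in the fit and -0.49 as an exact difference of means, with overlapping groups (exact permutation test, p = 0.171). The median gene of this scale was at -1.49. Cd86 and Cd274 were lower relative to these markers in every stress sample, at -1.67 and -1.42 in the fit. As exact differences of means they were at -1.88 and -1.47 (exact permutation test, p = 0.0286 each). Cd40, Icosl, Cd28, Ctla4, Icos, Pdcd1 and Tgfb1 were also lower in every stress sample on this scale. The separation is thus not particular to Cd86 and Cd274, and Cd274 lay near the median gene. With 1 sample left out, the fit put Cd86 between -2.25 (without stress replicate 2) and -1.53. On the classical monocyte scale, 0.0512% of all tested genes were higher and 86.7% lower. Relative to the 12 platelet markers Tgfb1 was lower in every stress sample, at -0.58 in the fit (standard error 0.21) and -0.57 as an exact difference (exact permutation test, p = 0.0286). The other members except Cd80 were also lower in every stress sample there. The median gene of the platelet scale was at -1.02. There 0.444% of all tested genes were higher and 78.6% lower. Adjusted p-values are not given for these last 2 scales for the reason given above for total counts.

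**Figure D4:**
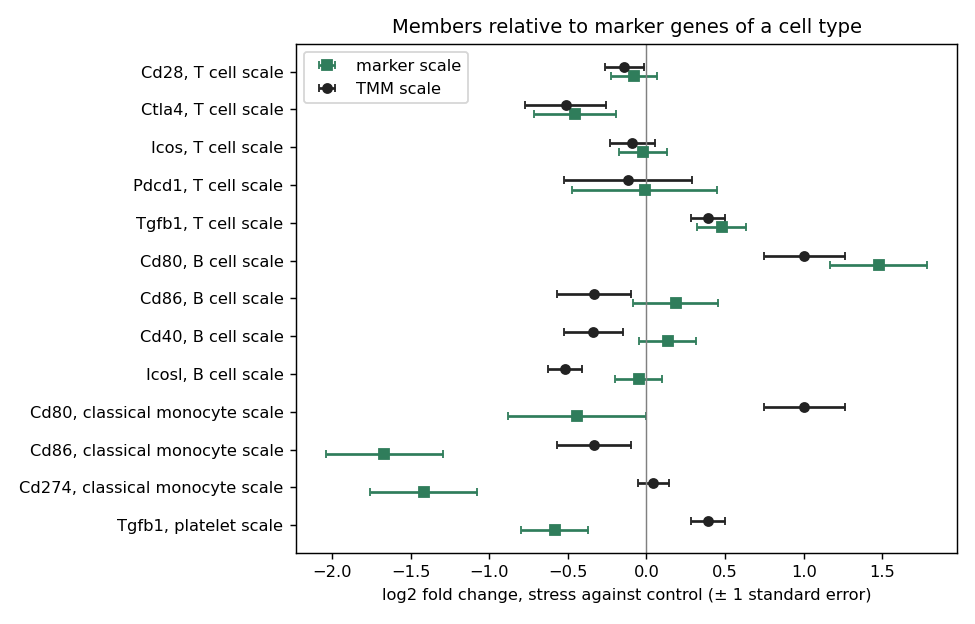
Log2 fold change (stress against control, ± 1 standard error) of each gene with libraries scaled by TMM (black circles) and by the markers of 1 cell type (green squares). Icosl moves from -0.52 to -0.05 on the B cell scale, Cd80 from 1.00 to 1.48 on the B cell and to -0.44 on the classical monocyte scale, and Tgfb1 from 0.39 to -0.58 on the platelet scale; the standard errors of the marker scales do not include the error of the scale itself.

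Other genes of the same pathways were taken from 6 lists, and their medians are set beside the median of all tested genes, -0.03. The counts below are on the TMM scale, where 10.4% of all tested genes rose and 3.69% fell. The lists were not tested as sets. On total counts alone, where 49.6% of all tested genes were lower at an adjusted p below 0.05, 5 of 6 tested genes of the B7 and CD28 families were lower, 4 of 9 of the TNF family, 7 of 21 other coreceptors, 12 of 21 signalling genes, 6 of 10 T cell activation genes and 13 of 20 genes of the TGF-β pathway. On that scale 1 gene of these lists was higher, Thbs1 of the TGF-β pathway. These counts rest on the model, which leaves out the shared error of the scale, and the list genes had no exact permutation test. Of 6 tested genes of the B7 and CD28 families and the BTLA axis, 2 fell and 0 rose (median -0.45; 1 was higher at an unadjusted p under 0.05, and with DESeq2 1 rose and 2 fell). They were Btla, an inhibitory receptor of B and T cells, from 143.9 ± 12.6 to 107.0 ± 13.03 CPM (SD, n = 4 each; log2 fold change -0.43, standard error 0.13, adjusted p = 0.0423, edgeR), and Tnfrsf14, which encodes its binding partner HVEM (log2 fold change -0.48, standard error 0.13, adjusted p = 0.0320, edgeR). Both were near the threshold. With 1 sample left out, Tnfrsf14 passed only without stress replicate 4, and Btla only without stress replicate 3 or 4. Vtcn1 of this list had 0 counts in every sample.

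In the TNF family of costimulators, 1 of 9 tested genes rose and 0 fell (median -0.02; 1 was lower at an unadjusted p under 0.05, and 0 fell with DESeq2). Tnfsf14, which encodes LIGHT, another partner of HVEM, rose from 6.37 ± 1.42 to 14.4 ± 1.27 CPM (SD, n = 4 each; log2 fold change 1.18, standard error 0.16, adjusted p = 0.00105, edgeR) and was called up. It passed in all 8 fits that left out 1 sample, but on total counts alone it was at 0.45 and did not pass (adjusted p = 0.243). The ligand genes Cd70, Tnfsf4 and Tnfsf18 had 0 to 4 counts per sample and were not tested.

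Of 21 tested genes of other coreceptors, 4 rose and 1 fell (median 0.13). At an unadjusted p under 0.05, 5 were higher and 2 lower, and with DESeq2 5 rose and 1 fell. Entpd1, which encodes the ectonucleotidase CD39, rose on the log2 scale by 0.99 (standard error 0.17, adjusted p = 0.00299, edgeR), Slamf1, a self-ligand receptor of leukocytes, by 0.73 (0.13, adjusted p = 0.00318) and Cd226, an activating receptor of T and NK cells that platelets also carry, by 0.68 (0.14, adjusted p = 0.00807). Slamf6, a receptor of lymphocytes, fell by 0.54 (standard error 0.13, adjusted p = 0.0155, edgeR), but not without control replicate 1 (adjusted p = 0.0527). On total counts alone Entpd1 was at 0.30, Slamf1 at 0.00, Cd226 below 0 at -0.09 and Slamf6 at -1.30. The checkpoint receptors Lag3, Havcr2 and Tigit of this list did not pass, but they were scarce. Their mean levels in control and stress samples were 0.40 and 0.45, 1.18 and 1.15, and 0.78 and 1.01 CPM. The standard errors of their log2 fold changes were 0.54, 0.36 and 0.37, so a change may have gone undetected.

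Of the 21 genes given here that act below these receptors, 4 rose and 0 fell (median -0.11). At an unadjusted p under 0.05, 5 were higher and 4 lower, and with DESeq2 4 rose and 0 fell. Ap2m1, the adaptor subunit that takes CTLA-4 into the cell, rose on the log2 scale by 0.70 (standard error 0.15, adjusted p = 0.00725, edgeR), Ptpn11, the phosphatase SHP2 that PD-1 recruits, by 0.64 (0.14, adjusted p = 0.00846) and Bcl10, a signalling adaptor that leads to NF-kappaB, by 0.44 (0.09, adjusted p = 0.00885). All 3 lay below 0 on total counts alone (-0.09, -0.10 and -0.35). Of 10 tested genes that activated T cells induce, 1 rose and 1 fell (median -0.10; 2 were lower at an unadjusted p under 0.05, and with DESeq2 1 rose and 2 fell). They were Bcl2l1, a survival gene that red cell precursors also express, at 1.24 (standard error 0.27, adjusted p = 0.0110, edgeR), and Egr3, a transcription factor of activated T cells, at -0.78 (0.20, adjusted p = 0.0197). Bcl2l1 did not pass without stress replicate 3 (adjusted p = 0.0736), nor Egr3 without control replicate 2 or 3 or stress replicate 2 (up to 0.0810). Il2 and Ifng had at most 5 and 12 counts per sample and were not tested.

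In the TGF-β pathway, 3 of 20 tested genes rose and 0 fell, while the list's median was -0.17 (2 were lower at an unadjusted p under 0.05, and 0 fell with DESeq2). They were Ltbp1, Thbs1 and Furin. Ltbp1, which anchors latent TGF-β, rose from 22.2 ± 4.58 to 46.6 ± 3.15 CPM (SD, n = 4 each; log2 fold change 1.07, standard error 0.14, adjusted p = 9.00e-04, edgeR) and Thbs1, the thrombospondin that activates latent TGF-β, from 202.8 ± 55.9 to 523.8 ± 129.9 CPM (log2 fold change 1.37, standard error 0.23, adjusted p = 0.00250). Both were called up and passed in all 8 fits that left out 1 sample, both lay above 0 on total counts alone (0.32 and 0.72), and both are known platelet transcripts. Furin, the protease that processes the precursor, rose on the log2 scale by 0.45 (standard error 0.13, adjusted p = 0.0356), was below 0 on total counts alone (-0.27) and with 1 sample left out passed only without control replicate 4 or stress replicate 3. The receptor and SMAD genes of the list did not pass, nor did Lrrc32, Nrros, Itgav and Ltbp3, which also act on latent TGF-β.

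**Figure D5:**
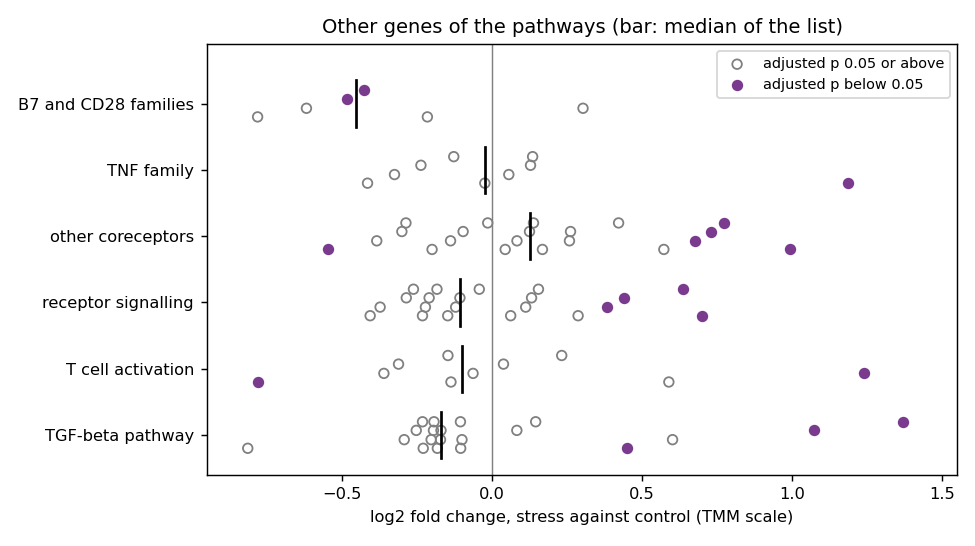
Log2 fold change (stress against control, TMM scale) of the tested genes of 6 pathway lists; each point is a gene, filled where its adjusted p was below 0.05, and the vertical bar is the median of the list. Most genes lie between -0.5 and 0.5, with Thbs1 (1.37), Bcl2l1 (1.24), Tnfsf14 (1.18) and Ltbp1 (1.07) farthest to the right.

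The genes whose levels ran most like those of the 3 members that passed were found by Pearson's correlation of log2 CPM over the 8 samples, given as a description, since the samples share their group, library and scaling. For Cd80 they were Orai1 (r = 0.996), Lmnb1 (0.988) and Ppp1r9b (0.982). For Icosl they were Hmgxb4 (0.982), Exosc10 (0.977) and Tnks1bp1 (0.973), and for Tgfb1 they were Tmem43 (0.992), Sla (0.991) and Mcemp1 (0.983). After each group's mean was taken out, the correlation was 0.983, 0.941 and 0.948 for the genes of Cd80, 0.927, 0.898 and 0.859 for those of Icosl and 0.963, 0.936 and 0.896 for those of Tgfb1. The genes were picked as the highest of all tested genes over these same samples. Both sets of correlations are therefore raised by the choice, and the second is no separate check of the first.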

How the data were processed

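The authors sequenced RNA from mouse peripheral blood and deposited 1 table of raw read counts per gene symbol, without normalization. The submitters' processing notes name HISAT2, featureCounts and mm10, and annotation, strand setting and versions are not given in the sources used here. From the counts, 11718 of 21878 genes that reached 10 counts in 4 or more samples were tested with edgeR 4.0.16 in R 4.3.3 (TMM, robust quasi-likelihood test, Benjamini-Hochberg adjustment). Pair ratios used log2 CPM with a prior count of 2 and exact permutation tests over 70 assignments of the samples. Marker scales used the median of ratios over a marker list. On total counts and on the monocyte and platelet scales the fit's median degrees of freedom were 70300 (13.5 on TMM), so exact permutation tests, chosen after seeing the data, are given there for members only. The exact permutation p-values of single members are not adjusted. DESeq2 1.42.0, limma-voom (limma 3.58.1), a replicate block, other scalings, other filters and fits without 1 sample were the alternatives. Scripts were tested on simulated data.

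The 10 genes, the lists, the pairs and the motifs were chosen with earlier results of these data known. Named were all 10 members and, from each list, up to 3 genes in each direction with the smallest p among those with an adjusted p below 0.05, with Cd40lg, Pdcd1lg2 and Foxp3 as partners. Lag3, Havcr2, Tigit, Lrrc32, Nrros, Itgav and Ltbp3, and the genes too scarce to test, were named after their values were seen. Coordinates and exon lengths are from GENCODE M21 (GRCm38, the build of mm10), and promoters from RefSeq (GRCm38.p6). Hhla2 of the lists is not in the count table, and 1 gene of the receptor signalling list, left out after its values were seen, is not reported here. Replicates of a group differed by more than counting noise (chi-square per degree of freedom 18.5 to 199.2), and the labels do not say whether samples with the same replicate number share a batch. Counting error alone limits genes with few counts, such as Pdcd1 and Cd80.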

Additional observations from a re-analysis of the deposited data

Results flagged for a closer look

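In 3 of 32 groups of 4 samples checked, 1 sample lay apart from the other 3 by more than Dixon's 95% limit, and chance flags about 1 in 20 groups. Control replicate 4 had 87.5 CPM of Tgfb1, against 74.2 in the next control sample (gap over range 0.906), and lay nearer to the stress samples, which began at 99.5 CPM. The same library had 6.78 CPM of Icos, against 8.34 in the next control sample (0.872). Stress replicate 4 had a log2 ratio of Ctla4 to Cd28 of -4.26, against -3.80 in the next stress sample (0.831).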

How the results depend on the processing

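With DESeq2, 1 member was called up (Cd80) and 307 and 12 of all genes were called up and down. On total counts alone 1 member was called down (Icosl, adjusted p = 0.00801), 0 were higher and 6 lower, and 14 and 729 of all genes were called. On that scale Cd274 was at -0.73 and Tgfb1 at -0.38 in the fit, and at -0.77 and -0.41 as exact differences of means. Genes called down were 4 with upper-quartile scaling and 4 without a count filter. Leaving out 1 sample gave 0 to 2 members higher (0 without control replicate 1, 2 or 3), 76 to 340 genes called up and 1 to 8 called down. It moved Pdcd1 between -0.32 and 0.10, Cd86 between -0.60 and -0.15 (without stress replicate 2 and 4), Cd40 between -0.43 and -0.16 (1 and 2), Cd28 between -0.21 and -0.051 (2 and 1), Icos between -0.18 and -0.016 (2 and 4), Ctla4 up to -0.33 (without control replicate 1) and Cd274 up to 0.10 (without stress replicate 3), none of which had passed. The pair differences that changed sign were Icosl to Cd86 (-0.41 to 0.13), Icos to Cd28 (-0.04 to 0.14) and Pdcd1 to Cd28 (-0.18 to 0.28). Cd80 on the classical monocyte scale lay between -0.68 and -0.25. On the T cell scale Cd28 moved between -0.14 and 0.026, Icos between -0.088 and 0.019, Pdcd1 between -0.27 and 0.24 and Tgfb1 between 0.42 and 0.56, and Cd86 on the B cell scale between -0.21 (without stress replicate 2) and 0.41. With a prior count of 5 the difference of Pdcd1 to Cd28 was 0.010. With summed markers in place of the median of ratios, Tgfb1 passed on the T cell scale (0.47, adjusted p = 0.0447, edgeR). The cause of these shifts was not tested.

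The replicate numbers showed no sign of pairing, as the deviations of same-numbered samples correlated at 0.0621, 4.44e-04, -0.0446 and -0.16. These correlations cannot exclude a shared batch. With the replicate block 1 member was higher (Cd80, adjusted p = 0.0448), Tgfb1 did not pass (log2 fold change 0.40, adjusted p = 0.0686) and 1 gene was called down, and Icosl passed (adjusted p = 0.0216). Of the other genes named, Btla (adjusted p = 0.0919) and Bcl2l1 (0.0895) did not pass with the block. For the pair ratios, sign flips over the replicate block cannot give a p below 0.125, so they say nothing about stability. With 1 sample left out, the difference was 1.16 to 1.53 for Cd80 to Cd86 and -1.08 to -0.83 for Cd274 to Cd80. The adjusted p of both was then 0.0857 to 0.171 (exact permutation test), against 0.0857 with all samples. Depth limits Pdcd1 and Cd80, with 6 to 36 and 24 to 65 counts per sample.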
